A study of Mus musculus with 114 samples.

Results

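Pyruvate dehydrogenase and the tricarboxylic acid (TCA) cycle were followed through 9 genes, Pdha1, Pdhb, Dlat, Cs, Idh3a, Ogdh, Sucla2, Fh1 and Mdh2, in mouse adipocytes. The 9 genes were chosen by name for their place in the pathway, with earlier results of these data known, out of 29132 genes with a value. All were male C57BL/6J mice, put at the age of 6 weeks on chow (CD) or on a diet with 60% of energy as fat (HFD), and studied 8, 20 and 34 weeks later. The paper names alternative control diets for the chow mice, and food was removed for 6 hours before tissue was taken. Adipocytes were the cells that floated after collagenase digestion of perigonadal white adipose tissue, so this is bulk RNA of a fraction and not of sorted cells. RNA-seq of 38 mice was analysed, in groups of 6 apart from the CD group at 34 weeks, which held 8. Expression is given as CPM, the reads of a gene per 1000000 reads on all genes of that mouse.

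Pyruvate made by glycolysis enters the mitochondrion and is turned into acetyl-CoA by the pyruvate dehydrogenase complex, which kinases switch off and phosphatases switch on. Citrate synthase then joins acetyl-CoA to oxaloacetate, and the cycle oxidises the product stepwise back to oxaloacetate while reducing carriers for the respiratory chain. In white adipocytes citrate is also exported to the cytosol, where ATP-citrate lyase splits it to supply acetyl-CoA for fatty acid synthesis.

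All 9 genes passed the filter on low values, which kept 10343 genes with a mean log2(CPM + 1) above 2.0. The genes lie on chromosomes 1, 5, 9, 10, 11, 14 and X, with Dlat and Idh3a both on chromosome 9 and Pdhb and Sucla2 both on chromosome 14 (RefSeq, GRCm38). Pdha1, the catalytic E1 alpha subunit of pyruvate dehydrogenase, lies on chromosome X from 160122219 to 160138430 and Cs, citrate synthase, on chromosome 10 from 128337727 to 128362482. Idh3a, the catalytic subunit of the NAD-dependent isocitrate dehydrogenase, lies on chromosome 9 from 54586511 to 54604662. Per kilobase of exon (union of GENCODE M21 exons, a later release than the one the reads were counted on), the mean level over 38 mice was 105 CPM in Pdha1, 102 in Mdh2 and 99.7 in Cs. These 3 levels lay closer to each other than the mice of 1 group did. Below them came Ogdh at 83.1, Pdhb at 54.8, Idh3a at 48.7, Sucla2 at 45.2, Fh1 at 40.9 and Dlat at 27.8 CPM per kilobase. Dlat, the E2 subunit that carries the acetyl group on lipoate, was thus the lowest per length although its protein forms the core of the complex.

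The stretches of 150 bases before the annotated starts of 4 members are shown, which were called at different times in the main fit. Pdha1, Cs and Fh1 were called lower with HFD at 20 and 34 weeks and were not called at 8 weeks. Sucla2 was called higher at 8 weeks and was not called at 20 or 34 weeks. At no time were these 4 called in both directions. The sequences are from RefSeq (GRCm38.p6), 5′ to 3′ along the gene, with capitals marking GC boxes (GGGCGG on either strand) and CCAAT boxes (CCAAT on either strand).
Pdha1 (chrX:160138431-160138580, minus strand): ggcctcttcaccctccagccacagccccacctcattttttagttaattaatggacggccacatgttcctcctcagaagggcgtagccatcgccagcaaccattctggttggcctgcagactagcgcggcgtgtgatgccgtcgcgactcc
Cs (chr10:128337577-128337726, plus strand): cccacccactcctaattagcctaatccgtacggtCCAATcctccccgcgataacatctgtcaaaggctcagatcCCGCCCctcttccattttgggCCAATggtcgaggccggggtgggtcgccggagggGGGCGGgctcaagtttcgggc
Fh1 (chr1:175625636-175625785, minus strand): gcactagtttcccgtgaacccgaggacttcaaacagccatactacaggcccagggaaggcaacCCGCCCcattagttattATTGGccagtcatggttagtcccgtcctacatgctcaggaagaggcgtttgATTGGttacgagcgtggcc
Sucla2 (chr14:73552636-73552785, plus strand): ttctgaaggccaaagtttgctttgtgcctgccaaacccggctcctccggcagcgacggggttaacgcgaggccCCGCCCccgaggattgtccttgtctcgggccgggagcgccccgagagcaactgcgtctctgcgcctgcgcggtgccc
Promoter windows of 300 bases (250 before and 50 after the start) were given for 8 members, and Idh3a had no entry. A GC box was found in the windows of 7 of the 8 members and in 35.7% of all 32851 windows, and a CCAAT box in those of 4 members (Cs, Fh1, Ogdh and Pdhb) and in 37.4% of all. Pdha1 held neither box. The NRF1 motif GCGCATGCG, searched on both strands like the other motifs, was found for Ogdh only among the members and in 1.75% of all windows. TCAAGGTCA, bound by estrogen-related receptors, and the YY1 motif AAGATGGCG were in no member's window and in 0.423% and 1.40% of all. Members were counted by gene and the background by window, so these shares are not in the same unit. Ogdh has several annotated starts, any of which could give a match. A match is a description of these letters only.

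The label of the fraction was checked with marker genes. All 12 adipocyte markers passed the filter and summed to between 26332 and 83905 CPM in a mouse. Macrophage markers (13 genes) were also present in every group and were higher with HFD at each time, their median sum being 769 (CD) and 2056 CPM (HFD) at 8 weeks, 1766 and 7043 CPM at 20 weeks, and 3676 and 11143 CPM at 34 weeks. Adipocyte markers moved the other way, their mean log2 level in HFD minus CD being -0.24, -0.67 and -0.80 at 8, 20 and 34 weeks. T cell and B cell markers (0 of 8 and 0 of 5 past the filter) summed to at most 5.93 and 5.90 CPM in any mouse, and epididymis and testis markers (0 of 8) at or under 39.3 CPM. Endothelial markers (8 genes) were between 29.6 and 491 CPM in sum, and their mean log2 level was higher in HFD by 1.42, 1.24 and 1.16. Progenitor and fibroblast markers (8 of 9 past the filter) were between 229 and 2116 CPM, and their mean log2 level was higher in HFD by 1.28, 2.08 and 0.75. For lipid-associated macrophage markers (9 of 9) the differences were 2.57, 4.67 and 2.43, for mesothelial markers (3 of 6) 0.77, 0.34 and -0.20, for brown adipocyte markers (3 of 7) 0.36, 0.37 and 0.30, for skeletal muscle markers (1 of 7) -0.03, 0.09 and -0.06, and for erythroid markers (2 of 5) 0.94, 0.08 and 1.04. In bulk RNA a smaller share of adipocytes and less RNA of a gene per adipocyte cannot be told apart. Reads on genes were between 9275711 and 15480388 per mouse, and each member had between 988 and 12293 reads in a mouse. At 8 weeks the HFD mice (13201234 to 15480388 reads) were all more deeply sequenced than the CD mice (10562845 to 12611013).

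**Figure D1:**
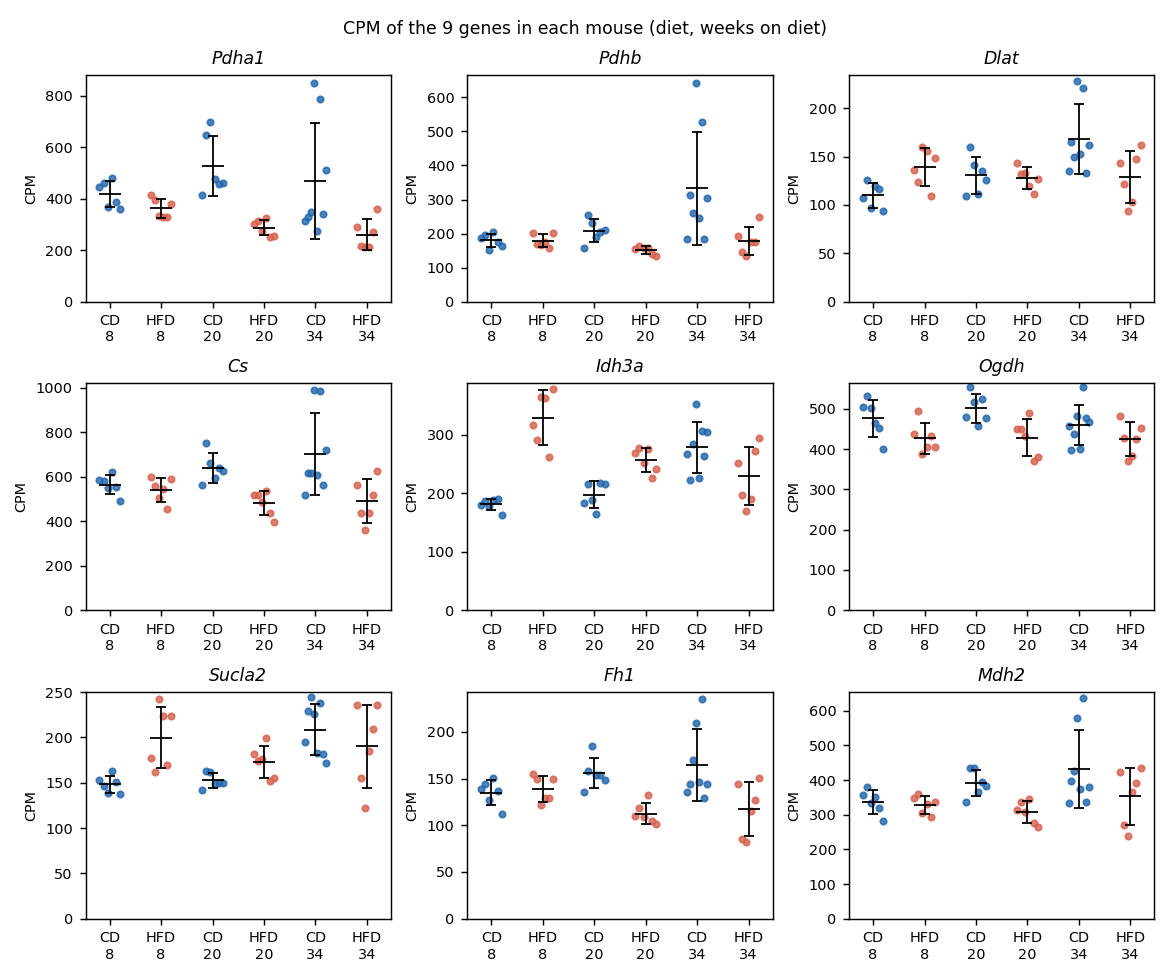
CPM of each of the 9 genes (y axis, from 0) in the 6 groups of mice (x axis, diet and weeks on diet). Points are mice (blue CD, red HFD), the black line is the mean and the bar 1 SD. Idh3a and Sucla2 are higher with HFD at 8 weeks, Pdha1, Cs and Fh1 do not overlap between the diets at 20 weeks, and 2 of the 8 CD mice stand far above the other 6 at 34 weeks in Pdha1, Pdhb and Cs.

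In the main fit (plain CPM, all groups together) the members called after 8 weeks of HFD were all higher, and they were single subunits of their enzymes. Idh3a rose most, 1.80-fold in the fit, followed by Sucla2, the ADP-forming beta subunit of succinyl-CoA synthetase, and Dlat. These were 3 of the 9 members, in a comparison where 44.9% of all genes tested differed, 29.8% higher and 15.1% lower. The share of members called higher was thus near that of all genes. Idh3a was at 163, 183 and 190 CPM (lowest, median and highest) in the 6 CD mice and at 263, 340 and 378 in the 6 HFD mice. The diets did not overlap in this 1 member, nor in 22.8% of all genes tested. The log2 difference of Idh3a (HFD minus CD) was 0.85 (SE 0.12, limma, adjusted p = 2.73e-06), higher in 6 of 6 HFD mice.

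Sucla2 was at 138, 148 and 163 CPM in CD mice and at 162, 200 and 243 in HFD mice at 8 weeks, so that 5 of the 6 HFD mice lay above all CD mice. Its log2 difference was 0.41 (SE 0.12, adjusted p = 0.00699). Dlat was at 93.4, 112 and 126 CPM in CD and at 110, 142 and 160 in HFD mice. Here the diets overlapped more, and the log2 difference of 0.33 (SE 0.13) had an adjusted p of 0.0423. It was not called in 6 of the 11 other settings tried, nor without CD mouse 1, 3 or 6 or HFD mouse 1, 3, 4 or 6 (adjusted p up to 0.104). With TMM factors Sucla2 also missed the threshold (log2 difference 0.31, adjusted p = 0.0615) and Ogdh, the E1 subunit of the 2-oxoglutarate dehydrogenase complex, passed it in the lower direction (-0.26, adjusted p = 0.0428). Of the remaining members Pdha1 (-0.20), Pdhb (-0.00), Cs (-0.06), Fh1 (0.04) and Mdh2 (-0.04) had 95% intervals of the log2 difference that included 0. For Pdha1 the interval was from -0.61 to 0.21. The median over the 9 members was -0.00 and that over all genes tested 0.11. With TMM factors these medians were -0.11 and 0.01. Median-of-ratios factors, edgeR, DESeq2 and array weights also called 1 member lower.

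At 20 weeks most of the members that differed were lower. Of the 9 members 5 were lower and 1 was higher in HFD mice, in a comparison where 57.0% of all genes tested differed, 18.7% lower and 38.3% higher. Pdha1 fell most, with a ratio of HFD to CD of 0.554 in the fit. It was at 416, 470 and 698 CPM in CD mice and at 253, 288 and 323 in HFD mice. Every HFD mouse lay below every CD mouse, and the log2 difference was -0.85 (SE 0.20, adjusted p = 0.000545). Pdhb, the E1 beta subunit that pairs with Pdha1, was at 158, 208 and 255 CPM in CD and at 135, 155 and 164 in HFD mice. Only the lowest CD mouse was within the range of HFD, yet the log2 difference of -0.45 (SE 0.20) had an adjusted p of 0.0519. It was called lower in 8 of the 11 other settings, among them TMM factors, edgeR, DESeq2, array weights, the fit of 20 week mice alone and that without CD mice 4 and 6 of 34 weeks (adjusted p down to 0.000430). It also passed without CD mouse 1 of 20 weeks, CD mouse 1, 4, 6 or 7 of 34 weeks or HFD mouse 6 of 34 weeks (adjusted p down to 0.0208). Dlat differed by -0.02, with an interval that included 0.

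Further along the cycle Cs was at 561, 633 and 752 CPM in CD and at 398, 502 and 534 in HFD mice at 20 weeks. The diets did not overlap, with a log2 difference of -0.41 (SE 0.13, adjusted p = 0.0100). Fh1, the fumarase gene, was at 136, 153 and 185 CPM in CD and at 102, 109 and 132 in HFD mice. Here too the diets did not overlap, and the log2 difference was -0.46 (SE 0.13, adjusted p = 0.00380). Mdh2, the mitochondrial malate dehydrogenase that regenerates oxaloacetate, differed by -0.35 (adjusted p = 0.0334) and Ogdh by -0.23 (adjusted p = 0.0221), each with 5 of 6 HFD mice below all CD mice. All 5 genes were below the CD mean in 6 of 6 HFD mice. Mdh2 missed the threshold without CD mouse 2, 3 or 5 or HFD mouse 5 or 6 (adjusted p up to 0.0793), and Ogdh without CD mouse 2 or HFD mouse 5 or 6 (up to 0.0695).

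Idh3a was the called member that was higher at 20 weeks. It was at 164, 202 and 218 CPM in CD mice and at 225, 260 and 277 in HFD mice, without overlap. The log2 difference was 0.38 (SE 0.12, adjusted p = 0.00642), but with TMM factors it was 0.16 (adjusted p = 0.295). Median-of-ratios factors, edgeR and DESeq2 did not call any member higher at 20 weeks either. Sucla2 was at 142, 150 and 163 CPM in CD and at 152, 175 and 200 in HFD mice, with 4 of 6 HFD mice above all CD mice. Its log2 difference of 0.18 was not called (adjusted p = 0.216) but passed with array weights and when 20 week mice were fitted on their own (adjusted p = 0.0471 and 0.0422), and with TMM factors it was -0.04. Of the 9 members 4 did not overlap between the diets at this time, as did 37.2% of all genes tested. TMM factors lowered the median difference of all genes from 0.14 to -0.07, and that of the members from -0.35 to -0.56. The split of all calls moved from 3957 higher and 1937 lower to 2711 higher and 3358 lower, and that of the members from 1 higher and 5 lower to 0 and 6.

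At 34 weeks 6 of the 9 members were lower in HFD and none was higher, where 43.2% of all genes tested differed and 15.7% were lower. All 3 genes of the pyruvate dehydrogenase complex were among them. Pdhb was at 184, 283 and 642 CPM in the 8 CD mice and at 134, 175 and 248 in the 6 HFD mice, a log2 difference of -0.79 (SE 0.19, adjusted p = 0.00127). Pdha1 was at 275, 344 and 849 CPM in CD and at 210, 243 and 360 in HFD mice (-0.75, SE 0.19, adjusted p = 0.00206). In both genes the ranges of the diets overlapped, and 4 of the 6 HFD mice lay below all CD mice. Dlat was at 133, 157 and 228 CPM in CD and at 93.9, 132 and 162 in HFD mice (-0.39, adjusted p = 0.0128), and was not called without HFD mouse 3 (adjusted p = 0.0611).

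Cs (519, 616 and 989 CPM in CD, 358, 479 and 627 in HFD mice) differed by -0.50 (adjusted p = 0.00205) and Fh1 (130, 145 and 235 against 81.8, 121 and 150 CPM) by -0.49 (adjusted p = 0.00247). These 5 genes were below the CD mean in 6 of 6 HFD mice. Idh3a had been called higher with HFD at the earlier times in the main fit. It was now at 223, 275 and 353 CPM in CD and at 170, 225 and 294 in HFD mice. Its log2 difference of -0.29 (SE 0.11, adjusted p = 0.0309) passed the threshold in the lower direction (5 of 6 HFD mice), and missed it without CD mouse 4, 6 or 8 or HFD mouse 2, 3 or 4 (adjusted p up to 0.132). Mdh2 (-0.29, adjusted p = 0.0706), Sucla2 (-0.16) and Ogdh (-0.11) were not called. Mdh2 was called lower with TMM or median-of-ratios factors, edgeR, DESeq2 and the block by mouse number (adjusted p down to 0.0211), and without CD mouse 1 or 7 or HFD mouse 1 or 6 (adjusted p down to 0.0292). No member was without overlap between the diets, as against 2.46% of all genes tested.

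The calls at 34 weeks rested partly on CD mice 4 and 6. These mice were at 849 and 785 CPM for Pdha1, 642 and 527 for Pdhb and 989 and 985 for Cs, while the other 6 CD mice were at 275 to 512, 184 to 312 and 519 to 720. Both also had the highest mean level of adipocyte markers of the 8 CD mice, a log2 mean of 11.5 and 11.7. Without both mice, an analysis chosen after their values were seen, 4 members stayed lower in HFD (Pdhb -0.48, Pdha1 -0.44, Fh1 -0.33 and Cs -0.32, adjusted p between 0.00864 and 0.0268), and Dlat and Idh3a did not pass. When the 34 week mice were fitted on their own, 1 member passed (Pdhb, limma, adjusted p = 0.0460). Of all 10343 genes tested, 1628 were called lower in the main fit. Without both mice 1188 were, and 764 in the fit of 34 week mice alone.

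**Figure D2:**
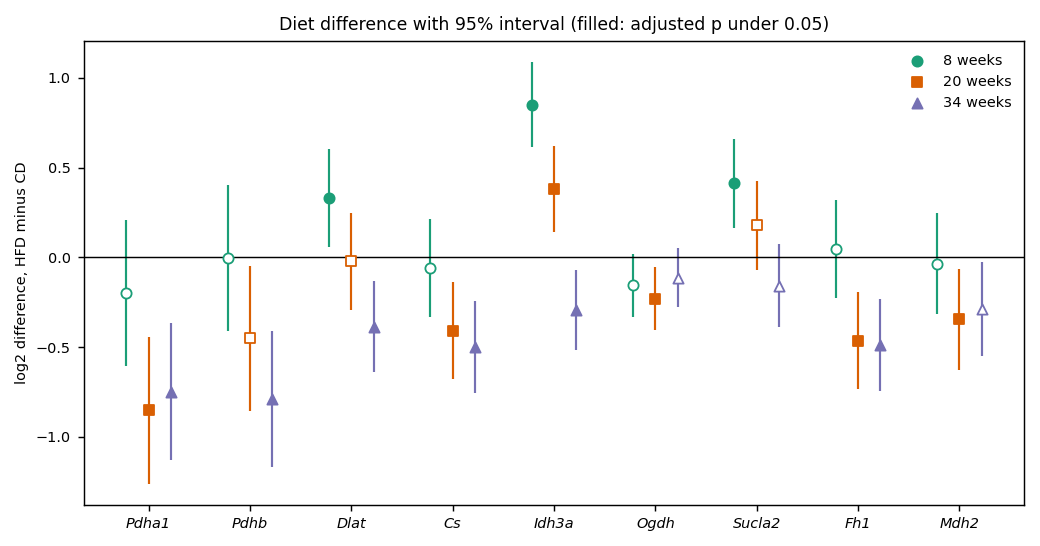
Difference of log2(CPM + 1) between HFD and CD (y axis) for the 9 genes (x axis) at 8 weeks (circles), 20 weeks (squares) and 34 weeks (triangles), with 95% intervals from the limma fit. Filled symbols have an adjusted p under 0.05. Idh3a goes from 0.85 to -0.29 and Pdha1 is at or below -0.75 at both later times.

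The levels of macrophage and adipocyte markers moved with the diet and with the members. After subtraction of each group's mean, the mean of the 9 members over 38 mice had a Pearson r of -0.61 with the mean of macrophage markers and of 0.77 with that of adipocyte markers, as a description of values that share a library. From 8 to 34 weeks in CD mice macrophage markers were higher and 6 members were called higher. The HFD mouse with the lowest mean of the 9 members at 34 weeks (log2 mean 7.45) had the highest mean of macrophage markers (9.15), and that with the highest mean of the members (8.23) had the lowest (7.62). HFD mice at 8 weeks did not follow this order. There the mouse with the lowest mean of the members (7.86) was at 6.15 for macrophage markers, and that with the highest (8.15) at 6.98. With the macrophage mean of each mouse as a covariate, 3 members were called higher at 8 weeks, the median of the members at 20 weeks was 0.01 in place of -0.35, and 1 member (Idh3a, 0.57, adjusted p = 0.00131) was called at 20 weeks and 0 at 34 weeks, where 6 and 6 had been called. Calls over all 10343 genes tested fell as well with this covariate, from 5894 to 3431 at 20 weeks and from 4468 to 953 at 34 weeks. At 34 weeks 359 of these genes were called lower. Macrophage and adipocyte marker levels were themselves different between the diets, so this fit cannot separate them from diet. Their part in the members' differences was not tested.

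**Figure D3:**
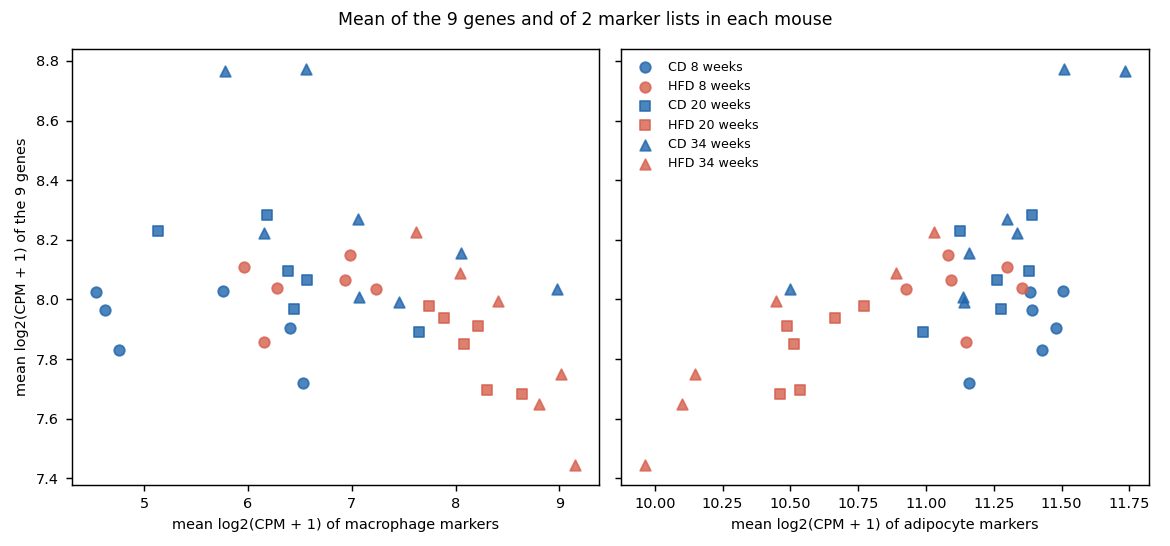
Mean log2(CPM + 1) of the 9 genes in each mouse (y axis) against the mean of 13 macrophage markers (left x axis) and of 12 adipocyte markers (right x axis). Each point is a mouse, coloured by diet (blue CD, red HFD) and shaped by weeks on diet. CD mice 4 and 6 of 34 weeks stand at the top with means of 8.77 and 8.76.

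Time on chow was followed separately from diet. From 8 to 20 weeks 0 of the 9 members were called in CD mice, where 3.58% of all genes tested were. All 9 differences were positive, from 0.04 in Sucla2 to 0.32 in Pdha1. Their median was 0.20, and that over all genes tested -0.02. The unadjusted p was not under 0.05 for any member in limma, and edgeR and DESeq2 on the recovered reads called 0 as well. From 20 to 34 weeks 4 members rose in CD mice, where 62.5% of all genes tested changed and 41.1% rose, a share near that of the members. Idh3a (0.49, SE 0.11, adjusted p = 0.000313) and Sucla2 (0.44, SE 0.11, adjusted p = 0.00135) rose without overlap between the ages, from medians of 202 to 275 CPM and of 150 to 210 CPM. Of all genes tested 20.0% did not overlap here. Pdhb (0.55, adjusted p = 0.0110) and Dlat (0.35, adjusted p = 0.0151) also rose, but missed the threshold without CD mice 4 and 6 of 34 weeks (adjusted p = 0.120 and 0.126). Without these mice Pdha1 (-0.58, adjusted p = 0.000628) and Ogdh (-0.19, adjusted p = 0.0437) were called lower at 34 weeks. Leaving out mouse 4 or mouse 6 alone was enough for Pdha1 (adjusted p = 0.0350 and 0.0497). With TMM factors 1 member was called higher and 1 lower in this comparison, Ogdh being the lower one (adjusted p = 0.0129).

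From 8 to 34 weeks 6 members rose in CD mice, where 64.7% of all genes tested changed and 40.1% rose. Pdhb differed by 0.76 (SE 0.19, adjusted p = 0.000716), and by 0.44 without CD mice 4 and 6 of 34 weeks, which put it below Idh3a (0.52 without them). With all mice the other differences were Idh3a (0.61, adjusted p = 1.89e-05), Dlat (0.59, adjusted p = 0.000132) and Sucla2 (0.48, adjusted p = 0.000510). These 4 passed in every setting and with every mouse left out in turn. Idh3a, Dlat and Sucla2 did not overlap between 8 and 34 weeks, nor did 24.7% of all genes tested. Mdh2 (0.33, adjusted p = 0.0281) and Cs (0.28, adjusted p = 0.0491) were closer to the threshold and were not called in 6 and 8 of the 11 other settings, TMM factors, edgeR and DESeq2 among them for both. Mdh2 missed it without CD mouse 5 or 6 of 8 weeks or mouse 4 or 6 of 34 weeks (adjusted p up to 0.0802), and Cs in 26 of 38 fits that each left out 1 mouse (up to 0.132). Pdha1, the partner of Pdhb, differed by 0.05 with an interval that included 0. Over the same time the mean log2 of macrophage markers was higher by 1.70 in CD mice, and that of adipocyte markers differed by -0.16.

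In HFD mice 1 member fell from 8 to 20 weeks, where 36.5% of all genes tested changed. This was Idh3a (-0.35, SE 0.12, adjusted p = 0.0201), which missed the threshold without HFD mouse 6 of 8 weeks or mouse 5 of 20 weeks (both adjusted p = 0.0520). No member was called from 20 to 34 weeks (30.2% of all genes tested). Unadjusted p-values for this comparison were above 0.05 for all 9 in limma, and edgeR and DESeq2 called 0. From 8 to 34 weeks 2 members fell (52.5% of all genes tested changed), Idh3a by 0.54 on the log2 scale (adjusted p = 0.000315) and Pdha1 by 0.50 (adjusted p = 0.0357). The call of Pdha1 was lost without HFD mouse 1, 2 or 6 of 8 weeks or mouse 2, 3 or 4 of 34 weeks, with adjusted p up to 0.0825. For Pdhb, the other E1 subunit, the HFD groups differed by -0.03 over the same time.

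Whether the diet difference itself changed with time was tested with interaction terms. Between 8 and 20 weeks 0 of the 9 members passed (4.49% of all genes tested did), although all 9 differences were negative, from -0.07 in Ogdh to -0.66 in Pdha1. DESeq2 called 1 member here, Idh3a, edgeR called 0, and in limma 3 members (Pdha1, Idh3a and Fh1) had an unadjusted p under 0.05. Between 20 and 34 weeks 1 member passed (10.5% of all), Idh3a with -0.67 (SE 0.16, adjusted p = 0.00787). Between 8 and 34 weeks 5 members passed, all negative (28.8% of all genes tested). They were Idh3a (-1.14, SE 0.16, adjusted p = 1.54e-05), Pdhb (-0.78, adjusted p = 0.0294), Dlat (-0.72, adjusted p = 0.00380), Sucla2 (-0.57, adjusted p = 0.0105) and Fh1 (-0.53, adjusted p = 0.0276). Pdhb and Fh1 missed the threshold without CD mice 4 and 6 (adjusted p = 0.0609 and 0.0778), and each without HFD mouse 2 or 3 of 34 weeks, Pdhb also without CD mouse 3 and Fh1 without CD mouse 6 of 8 weeks (up to 0.0699). These 3 terms share groups and are not independent of each other or of the diet differences.

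The other genes of pyruvate entry were set beside the members. Of 8 genes of pyruvate entry and the complex (Pdha1, Pdhb, Dlat, Dld, Pdhx, Mpc1, Mpc2 and Pcx), 2 were higher and 0 lower in HFD at 8 weeks, 0 and 5 at 20 weeks, and 0 and 8 at 34 weeks, with median log2 differences of -0.00, -0.43 and -0.76. Of all genes tested 29.8% were higher and 15.1% lower at 8 weeks. The shares were 38.3% and 18.7% at 20 weeks, and 27.5% and 15.7% at 34 weeks. Beyond the members, calls of this list without CD mice 4 and 6 of 34 weeks were not examined, and Dlat lost its call there. Mpc2, a subunit of the mitochondrial pyruvate carrier, was the highest at 8 weeks (0.50, adjusted p = 0.0379). Pcx, pyruvate carboxylase, which makes oxaloacetate from pyruvate, had the largest difference at both later times. It was at 1801, 2534 and 3804 CPM in CD and at 969, 1187 and 1274 in HFD mice at 20 weeks (-1.17, SE 0.26, adjusted p = 0.000279), without overlap, and differed by -0.87 at 34 weeks (adjusted p = 0.00473).

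Kinases and phosphatases of the complex did not move as one. Of 7 genes (Pdk1 to Pdk4, Pdp1, Pdp2 and Pdpr) 0 were higher and 2 lower at 8 weeks, 1 and 3 at 20 weeks, and 0 and 1 at 34 weeks. Among all genes tested 15.1%, 18.7% and 15.7% were lower at these times, and 29.8%, 38.3% and 27.5% higher. Pdk2 was lower at each time, by -1.02 (adjusted p = 0.000859), -1.42 (adjusted p = 5.93e-06) and -0.85 (adjusted p = 0.00254). Pdk4, the kinase known to rise in fasting, was at 92.7, 151 and 218 CPM in CD and at 319, 358 and 1132 in HFD mice at 20 weeks. That was the only call of Pdk4 among the diet differences (1.56, SE 0.46, adjusted p = 0.00411), and at 34 weeks its CD mice spread from 50.2 to 898 CPM.

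Among 17 enzymes of the cycle 2 were higher and 2 lower in HFD at 8 weeks, 2 and 11 at 20 weeks, and 0 and 6 at 34 weeks, with medians of -0.06, -0.35 and -0.24. All genes tested were higher in 29.8% and lower in 15.1% at 8 weeks. The shares were 38.3% and 18.7% at 20 weeks, and 27.5% and 15.7% at 34 weeks. The partners of Idh3a in the same enzyme, Idh3b and Idh3g, were lower at 20 weeks (-0.51 and -0.46, adjusted p = 0.00294 and 0.00576). Idh3a was called higher there in the main fit, but not with TMM factors. Outside the members Suclg2, the GDP-forming beta subunit of succinyl-CoA synthetase, differed most, by -0.83, -1.14 and -0.53 at 8, 20 and 34 weeks (adjusted p = 0.000262, 1.24e-06 and 0.00723). It was at 108, 119 and 132 CPM in CD and at 49.6, 65.3 and 95.7 in HFD mice at 8 weeks. Sdha, the catalytic subunit of succinate dehydrogenase, was lower at all 3 times (-0.34, -0.69 and -0.37, adjusted p = 0.0352, 4.27e-05 and 0.0142). Of 3 genes that make or attach lipoate, the cofactor of Dlat, 1 was called, Lias at 34 weeks (-0.35, adjusted p = 0.0104).

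For 12 mitochondrial carriers and cytosolic partners the calls were 4 higher and 1 lower at 8 weeks, 5 and 2 at 20 weeks, and 3 and 5 at 34 weeks. Among all genes tested 29.8%, 38.3% and 27.5% were higher at these times, and 15.1%, 18.7% and 15.7% lower. Slc25a13, an aspartate-glutamate carrier, had the largest difference at each time (1.49, 3.40 and 2.58, adjusted p = 0.00690, 2.30e-07 and 3.28e-05), from a median of 0.746 CPM in CD to 12.2, 21.6 and 29.1 CPM in HFD mice at 20 weeks. Differences of such low genes are on the log2(CPM + 1) scale and understate the change. Related copies of members could take reads of them. Csl, a near-identical copy of Cs, held 32 reads in all 38 mice and Pdha2, a copy of Pdha1, 4 reads, and both were below the filter. Dhtkd1, a relative of Ogdh that acts in lysine breakdown, was lower at each time (-0.74, -1.25 and -0.70, adjusted p up to 0.00178), and Ogdhl was higher at 8 weeks (0.93, adjusted p = 0.0215).

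**Figure D4:**
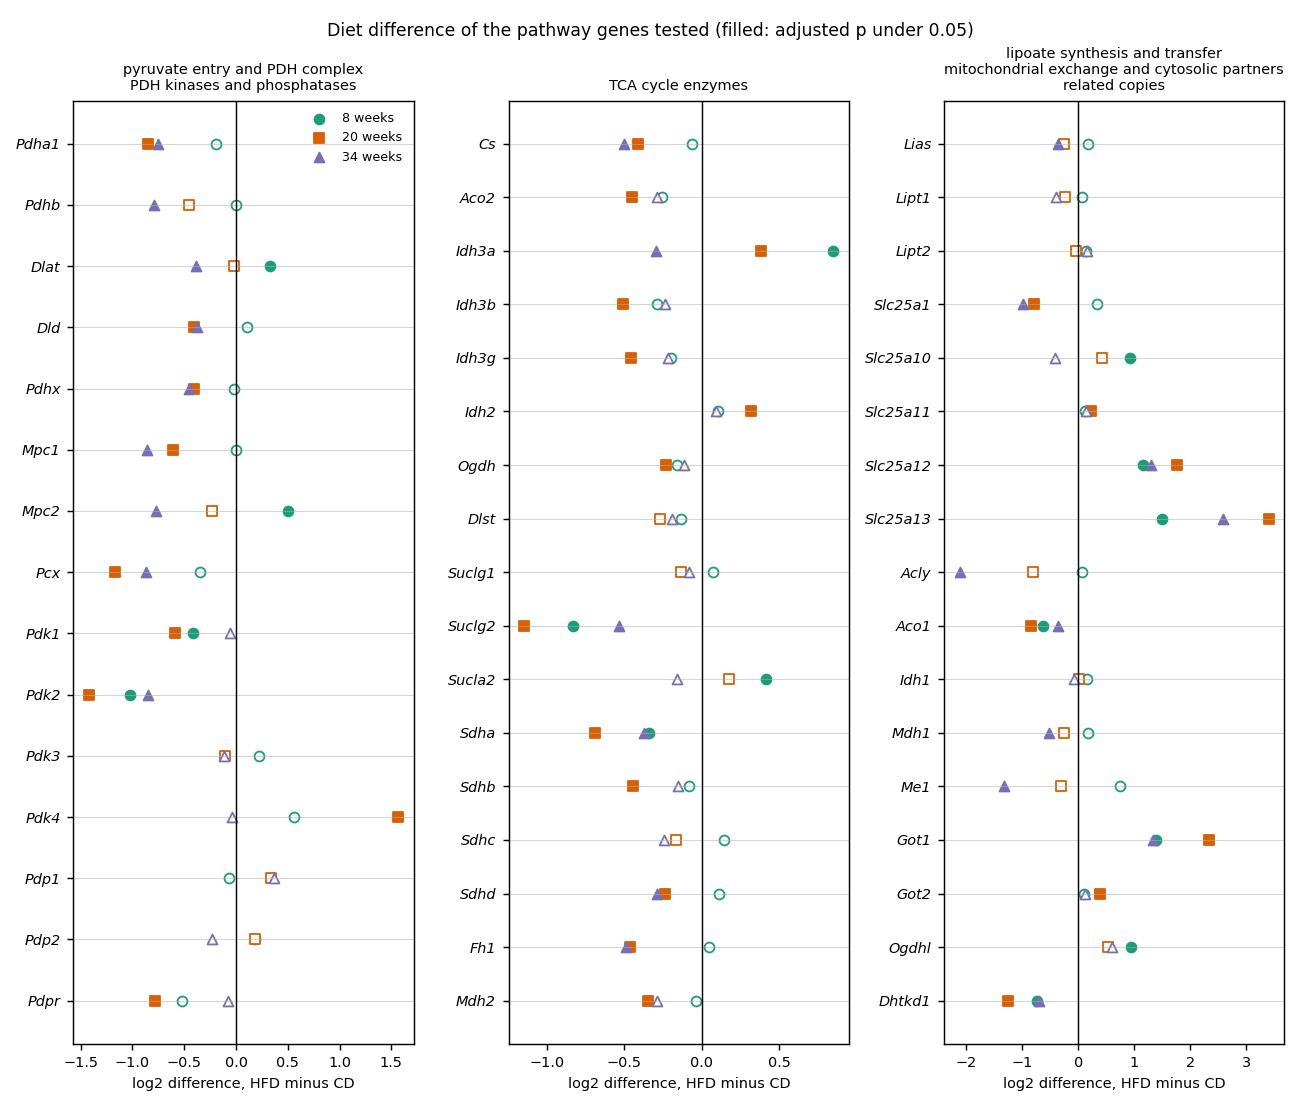
Difference of log2(CPM + 1) between HFD and CD (x axis) for each pathway gene tested (y axis), at 8 weeks (circles), 20 weeks (squares) and 34 weeks (triangles). Filled symbols have an adjusted p under 0.05, and the 3 panels have different x axes. With all mice in the fit, all 8 genes of pyruvate entry and the complex are lower at 34 weeks, where 15.7% of all genes tested were called lower. Suclg2, Pdk2, Sdha, Aco1 and Dhtkd1 are lower at every time.

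Ratios of gene pairs within a mouse depend little on the scaling of that mouse, and 5 were compared between the diets at 3 times with exact two-sided permutation tests over mice, adjusted over the 15 tests. Of these 8 passed. The pairs were chosen with earlier results of these data known, so the p-values are not those of pairs fixed in advance. The log2 ratio of Sucla2 to Suclg2, the alternative beta subunits of succinyl-CoA synthetase, was 0.30 ± 0.12 (SD, n = 6) in CD and 1.54 ± 0.57 (n = 6) in HFD mice at 8 weeks, and 0.24 ± 0.15 and 1.56 ± 0.25 at 20 weeks. The diets did not overlap at either time (exact permutation p = 0.00216, the smallest that 6 against 6 mice can give, adjusted p = 0.00649). In 34 week mice it was 1.35 ± 0.20 in CD (n = 8) and 1.72 ± 0.15 in HFD (exact permutation p = 0.00300, adjusted p = 0.00749). The level in CD mice at 34 weeks was thus close to that of HFD mice at 8 weeks, while the ratio in HFD mice stayed between 1.54 and 1.72.

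The log2 ratio of Pdk4 to Pdha1 was -1.80 ± 0.66 in chow mice and 0.62 ± 0.60 in HFD mice at 20 weeks (n = 6 each, exact permutation p = 0.00216, adjusted p = 0.00649), without overlap. At 8 weeks the difference was 0.76 (exact permutation, adjusted p = 0.0541, passing without CD mouse 5 or 6 or HFD mouse 1 or 6) and at 34 weeks 0.71 (adjusted p = 0.483, exact permutation), where the SD of CD mice was 2.00. CD mice 4 and 6, the pair with high Pdha1, were at -3.79 and -3.94 and the other 6 CD mice between -0.73 and 1.39. Pcx fell further than Pdha1 at 20 weeks, where the difference of their log2 ratio was -0.32 (exact permutation, adjusted p = 0.00649). It did not pass at 8 weeks (-0.15) or 34 weeks (-0.12).

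Idh3a and Idh2, the NAD- and NADP-dependent isocitrate dehydrogenases of the mitochondrion, separated at 8 weeks, with a difference in their log2 ratio of 0.75 (exact permutation, adjusted p = 0.00649) and no overlap. The difference was 0.06 at 20 weeks and -0.38 at 34 weeks (exact permutation, adjusted p = 0.0381), and the last was lost without CD mouse 1, 4, 6, 7 or 8 or HFD mouse 1, 3, 4 or 6 (adjusted p up to 0.0803). Acly, ATP-citrate lyase, against Cs differed at 34 weeks by -1.62 (exact permutation, adjusted p = 0.0128), from 0.63 ± 1.13 in CD to -0.99 ± 0.39 in HFD mice. At 8 and 20 weeks the differences were 0.13 and -0.40 and did not pass. In the 34 week CD group mice 4, 6 and 8 were at 2.22, 1.09 and 2.14 for Acly to Cs. The other CD mice of that time were between -0.85 and 0.67. This ratio was not tested without CD mice 4 and 6 together.

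**Figure D5:**
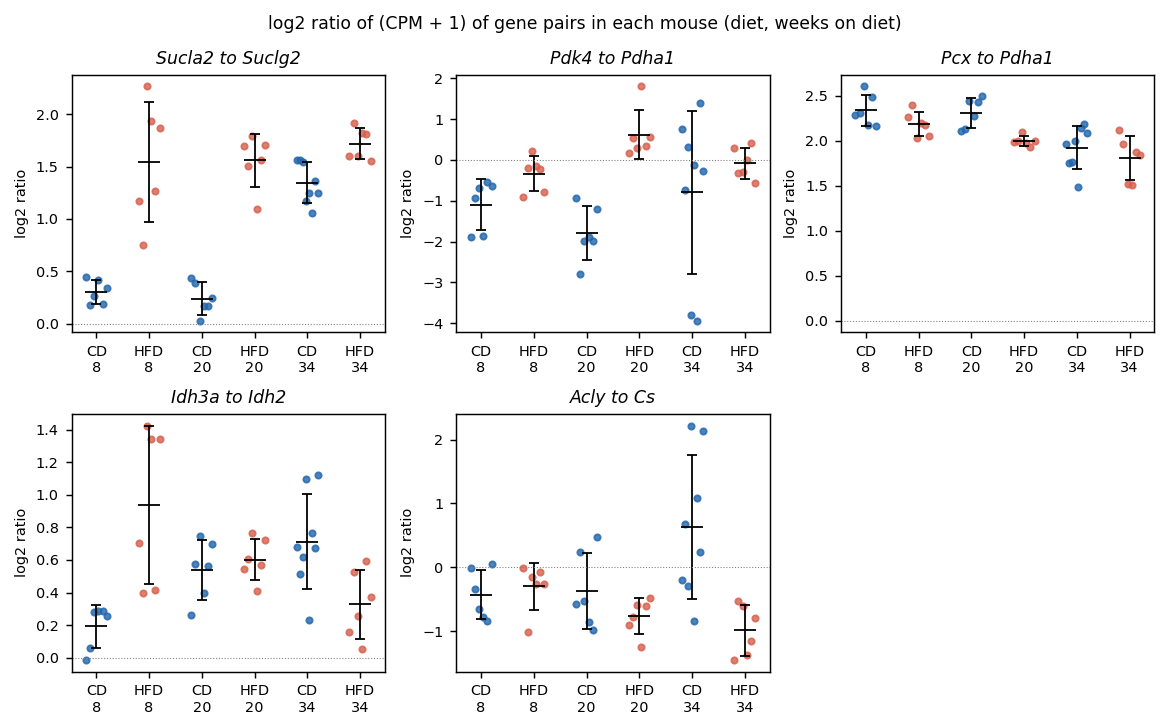
log2 ratio of (CPM + 1) of 5 pairs of genes in each mouse (y axis) in the 6 groups (x axis, diet and weeks on diet). Points are mice (blue CD, red HFD), the black line is the mean and the bar 1 SD. Sucla2 to Suclg2 is higher in every HFD mouse than in any CD mouse at 8 and 20 weeks, and CD mice at 34 weeks have moved up to a mean of 1.35.

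The members varied together among mice. The Pearson r of their log2(CPM + 1) over 38 mice was positive in 34 of 36 pairs, with a median of 0.65 and a range from -0.09 to 0.92. Within groups, after subtraction of each group's mean, it was positive in all 36 pairs, with a median of 0.69 and a lowest value of 0.27 between Ogdh and Sucla2. These values are descriptions, since the genes of a mouse share 1 library and its mixture of cells. Outside the lists above, the genes most like the mean of the members over 38 mice were Mtch2, Immt, Atp5a1, Mpc1-ps and Cyc1 (r of 0.94, 0.93, 0.93, 0.93 and 0.92, against a median of -0.11 over 10292 others). Within groups they were Immt, Atp5a1, Atp5b, Cyc1 and Pgm2 (0.95, 0.95, 0.93, 0.93 and 0.92, median of others -0.15). Atp5a1 and Atp5b encode subunits of ATP synthase, Cyc1 is part of respiratory complex III and Immt organises the cristae, while Mpc1-ps is annotated as a pseudogene of Mpc1 and may share its reads.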

How the data were processed

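Adipocyte RNA-seq of 38 mice was used. Per the study's methods, reads were aligned to mm10 with STAR and counted with featureCounts on exons of GENCODE vM2. The labels list 3 technical replicates per mouse and the table has 1 column per mouse, read as their merged values. The CPM values deposited by the authors were whole multiples of 1 read (0.0646 to 0.108 CPM, tolerance 0.1 reads) in 100.0% of values and summed to 1000000 in each mouse, so that no TMM factor was visible. Reads per mouse were 9275711 to 15480388, and precision so given covers counting error only. Columns were grouped by diet and weeks, as named in the labels.

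CPM were transformed to log2(CPM + 1), genes with a mean above 2.0 were kept (10343), and the 6 groups were fitted together with limma 3.58.1 and its mean-variance trend in R 4.3.3 (32 residual degrees of freedom), with two-sided tests, Benjamini-Hochberg adjustment over all genes tested and a threshold of 0.05. Alternatives were TMM and median-of-ratios factors, a pseudocount of 0.1, no filter, edgeR 4.0.16 and DESeq2 1.42.0 on recovered reads, array weights, separate fits, a block by mouse number, a macrophage covariate and leaving out mice. Mouse numbers do not pair the mice: of 18 pairs of the same number and time, 8 deviated together (r above 0.1, range -0.51 to 0.53). No 2 mice of a group agreed within sampling noise (chi-square at least 10.6 per degree of freedom), and the labels name separate mice.

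The 9 genes, the pathway and marker lists and the ratios were chosen with earlier results of these data known. Named besides the members are, per list, the called genes with the largest difference, genes of a ratio, and the 5 genes most like the members. Idh3b, Idh3g, Sdha and Aco1 and the GC and CCAAT boxes were added after values were seen.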

Additional observations from a re-analysis of the deposited data

Results flagged for a closer look

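Of 54 groups of mice examined (9 members in 6 groups) no mouse stood apart by Dixon's test, which chance would do in about 1 group in 20. In the 34 week CD group 2 mice were high together, which hides each from that test.

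The diet difference itself changed with time in 6 of 27 tests of members. Between 20 and 34 weeks Idh3a changed by -0.67 on the log2 scale (limma, adjusted p = 0.00787). Between 8 and 34 weeks the change was -0.78 in Pdhb, -0.72 in Dlat, -1.14 in Idh3a, -0.57 in Sucla2 and -0.53 in Fh1. All 6 were negative. Idh3a, Dlat and Sucla2 passed under every alternative tried, while Pdhb and Fh1 did not with TMM factors, median-of-ratios factors, array weights or without CD mice 4 and 6 of 34 weeks, and Fh1 not with edgeR.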

How the results depend on the processing

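A pseudocount of 0.1 changed no call of the members. Counts of members called moved as follows. With the macrophage mean as covariate they were 1 in place of 6 for diet at 20 weeks, 0 in place of 6 at 34 weeks, 3 in place of 0 for CD 20 against 8 weeks, and 0 in place of 1 for HFD 20 against 8 weeks. Of all 10343 genes tested, 3431, 953, 904 and 584 were called in these comparisons. The main fit called 5894, 4468, 370 and 3772. Array weights gave 3 for diet at 34 weeks, 6 and 1 for HFD 20 against 8 and 34 against 20 weeks (1 and 0 before), and 8 and 3 for the interactions 20 and 34 against 8 weeks (0 and 5 before). Over all genes array weights called 4103 for diet at 34 weeks (4468 before). They called 6392 and 5016 for these HFD comparisons (3772 and 3126 before), and 4263 and 4106 for these interactions (464 and 2982 before). Each time fitted on its own gave 1 for diet at 34 weeks, and each diet 2 for HFD 20 against 8 weeks. All genes called were then 2457 (4468 before) and 3981 (3772 before). TMM factors gave 2 in place of 4 for CD 34 against 20 weeks, and TMM or median-of-ratios factors 3 in place of 5 for the interaction 34 against 8 weeks. Over all genes TMM factors called 6077 in the first (6466 before). The interaction held 2995 with TMM and 3002 with median-of-ratios factors (2982 before). No filter gave 1 in place of 2 for HFD 34 against 8 weeks, and DESeq2 1 in place of 0 for the interaction 20 against 8 weeks. All genes called were 6469 of 21166 without the filter (5432 of 10343 before) and 851 with DESeq2 (464 before). Without CD mice 4 and 6 of 34 weeks the counts were 2 for HFD 20 against 8 weeks, and 2 and 3 for the interactions 20 and 34 against 8 weeks. Over all genes they were 4061 (3772 before), and 901 and 2781 (464 and 2982 before). For CD 34 against 8 weeks the count of 6 was 4 with TMM, median-of-ratios, edgeR, DESeq2, array weights and without those mice, and 9 with the macrophage covariate. Over all genes the settings that gave 4 called between 6555 and 6863, and the covariate 5671 (6696 before).

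With 1 mouse left out, the counts ranged from 2 to 3 for diet at 8 weeks, from 4 to 7 at 20 and at 34 weeks, from 0 to 2 for HFD 20 against 8 weeks, from 1 to 3 for HFD 34 against 8 weeks from 4 to 7 for CD 34 against 8 weeks, and from 3 to 6 for the interaction 34 against 8 weeks, where leaving out HFD mouse 2 or 3 of 34 weeks gave 3. Ratios called ranged from 7 to 9, against 8. No member with a call changed sign when a mouse was left out.

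Values that changed sign, with a call on either side, did so only with the macrophage covariate. They were Ogdh and Mdh2 for diet at 20 weeks (0.00823 and 0.00867), Ogdh and Pdha1 for HFD 34 against 8 weeks (0.25 and 0.10), and Ogdh for CD 34 against 8 weeks (0.18). The cause was not tested. The replicate block by mouse number gave 2, 7 and 6 members for diet at 8, 20 and 34 weeks (3, 6 and 6 without it), where at 34 weeks Idh3a was lost (adjusted p = 0.0684) and Mdh2 gained (0.0370), at 20 weeks Pdhb gained (0.0384) and at 8 weeks Dlat lost (0.0545), and in 3 of 18 pairs the CD mouse correlated best with the HFD mouse of its own number. Over all genes that block called 4574, 5905 and 4520 for diet at 8, 20 and 34 weeks (4648, 5894 and 4468 without it). CD mice 7 and 8 of 34 weeks are absorbed by that block. Depth did not limit these genes, which had at least 988 reads in every mouse.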
